A study of Rattus norvegicus with 9 samples.

Results

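The genes described here encode the matrix metalloproteinases (Mmp), their tissue inhibitors (Timp) and the ADAMTS and ADAMTS-like proteins, in RNA from cultured rat cardiac fibroblasts of 3 ages. They were chosen by symbol: every gene of the deposited count table named Mmp, Timp, Adamts or Adamtsl followed by a number. This gave 41 of 17337 genes, namely 21 Mmp, 4 Timp, 13 Adamts and 3 Adamtsl genes. Cells came from hearts of Sprague Dawley rats, an outbred strain, at embryonic day 18 (fetal), at postnatal day 1 (neonatal) and at 7 weeks (adult), with 3 libraries an age. The labels give no genotype, drug or pooling, and all groups shared the culture: unpassaged (P0) cells filled their flasks in DMEM with antibiotics, fetal bovine serum and ascorbic acid, so the values are those of cells in culture and not of the heart. The labels name no sort and do not say whether libraries of an age came from separate animals, so p-values measure the spread between these libraries, which may be technical.

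Matrix metalloproteinases are zinc-dependent proteases that are made as inactive proenzymes and together can cut most components of the extracellular matrix, among them fibrillar and basement membrane collagens, gelatin, elastin and proteoglycans. Some are secreted and others are anchored in the cell membrane, and TIMP proteins block them by binding the active site. The related ADAMTS proteases trim procollagens and cut large aggregating proteoglycans such as versican and aggrecan, while ADAMTS-like proteins share their ancillary domains but lack the protease domain, and several bind fibrillin microfibrils. In the heart these families are known for matrix turnover during growth and after injury. Fibroblasts are a major source, and macrophages make some of them too.

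Of the Mmp genes, 9 lie side by side on chromosome 8, from 5522739 to 5900965 on rn6 (378 kb), in the order Mmp13, Mmp12, Mmp3, Mmp1, Mmp10, Mmp8, Mmp27, Mmp20 and Mmp7. Several had counts almost only in some of the libraries (given with their values), and their promoters share sequence features, so 7 promoters are printed here, Mmp8 as the contrast without an AP-1 match. Each stretch is the 150 bases before the annotated start, 5′ to 3′, from RefSeq on GRCr8, with motif matches in capitals. The AP-1 motif searched was TGAGTCA, and the TATA motif was TATAAA. Both strands were searched, so the AP-1 match of Mmp13, which is on the minus strand, reads TGACTCA as printed, and the TATA match of Mmp8 is likewise shown as its reverse complement.
Mmp13, chr8:12782679-12782828, plus strand: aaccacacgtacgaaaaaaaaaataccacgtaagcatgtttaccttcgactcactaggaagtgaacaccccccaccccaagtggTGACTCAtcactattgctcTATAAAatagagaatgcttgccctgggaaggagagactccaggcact
Mmp12, chr8:12866502-12866651, plus strand: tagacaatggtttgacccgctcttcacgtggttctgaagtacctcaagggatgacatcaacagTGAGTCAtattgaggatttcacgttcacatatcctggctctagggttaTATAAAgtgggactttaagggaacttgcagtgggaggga
Mmp3, chr8:12925131-12925280, plus strand: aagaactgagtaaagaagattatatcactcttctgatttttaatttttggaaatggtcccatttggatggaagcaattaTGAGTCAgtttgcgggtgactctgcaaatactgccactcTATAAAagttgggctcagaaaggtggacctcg
Mmp1, chr8:12943303-12943452, plus strand: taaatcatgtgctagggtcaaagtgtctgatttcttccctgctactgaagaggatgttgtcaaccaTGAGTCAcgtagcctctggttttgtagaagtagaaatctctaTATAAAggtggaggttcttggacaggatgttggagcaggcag
Mmp10, chr8:12974557-12974706, plus strand: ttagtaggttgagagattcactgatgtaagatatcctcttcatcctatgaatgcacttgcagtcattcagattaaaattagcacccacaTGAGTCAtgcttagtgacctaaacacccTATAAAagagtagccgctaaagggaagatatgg
Mmp7, chr8:13132893-13133042, plus strand: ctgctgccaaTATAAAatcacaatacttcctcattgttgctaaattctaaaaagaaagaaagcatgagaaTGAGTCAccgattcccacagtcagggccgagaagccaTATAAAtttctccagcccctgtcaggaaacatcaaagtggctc
Mmp8, chr8:13008740-13008889, plus strand: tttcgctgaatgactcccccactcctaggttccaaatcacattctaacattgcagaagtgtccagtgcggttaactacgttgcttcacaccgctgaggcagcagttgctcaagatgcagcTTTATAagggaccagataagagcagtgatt
An AP-1 match lay in 6 of the 9 promoters of the cluster, those of Mmp13, Mmp12, Mmp3, Mmp1, Mmp10 and Mmp7, and its first base was between 61 and 87 bases before the start (61 in Mmp10, 66 in Mmp13, 71 in Mmp3, 80 in Mmp7, 84 in Mmp1 and 87 in Mmp12). All 6 also held a TATA match, and no AP-1 match overlapped a TATA match. AP-1 is the Fos and Jun family of transcription factors. Over all 33469 promoter windows of the same length in the table, searched on both strands, 2.38% held the AP-1 motif, 8% the TATA motif and 0.23% both. Promoters were listed for 32 of the 41 members. The 6 with both motifs were the only ones of those 32 with an AP-1 match, and 12 of the 32 had a TATA match. Mmp8, Mmp20 and Mmp27 had no AP-1 match in the window. No promoter was listed for Mmp2, Mmp9, Mmp14, Mmp16, Mmp17, Mmp19, Adamts5, Adamts15 and Adamts19. A match to these letters is a description of the sequence and not a bound site.

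**Figure D1:**
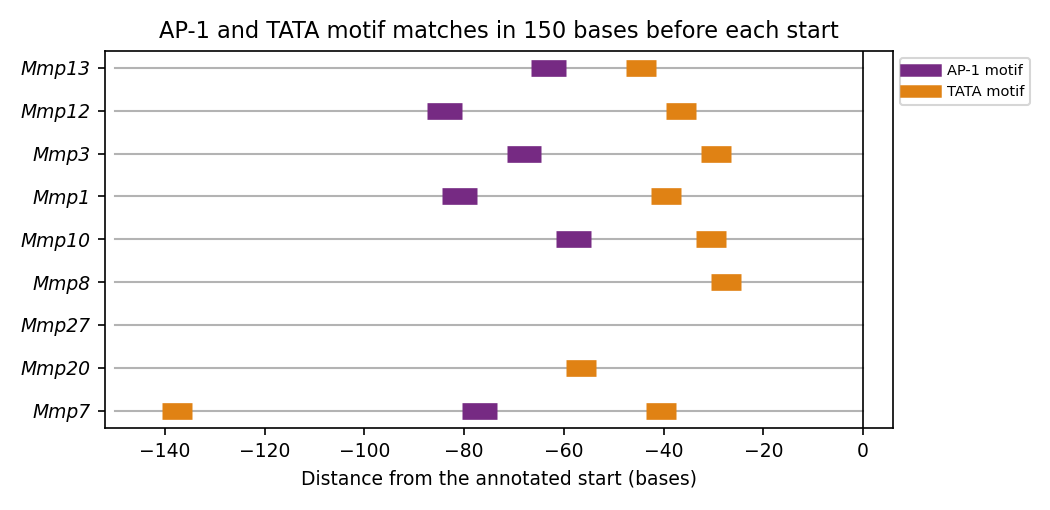
Positions of AP-1 (purple) and TATA (orange) motif matches in the 150 bases before the annotated start of the 9 cluster genes, in map order, with distance from the start in bases on the x axis. In 6 genes an AP-1 match lies 61 to 87 bases before the start, upstream of a TATA match.

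The libraries held 13392825 to 22850491 counts assigned to genes, and the adult libraries were the shallowest (13392825 to 13810825). Levels are given as CPM, read counts relative to the TMM-scaled library size. All 12 fibroblast markers checked (such as Col1a1, Pdgfra and Tcf21) exceeded 3 counts in at least 1 library of every age. Their summed levels were 28038 to 54419 CPM in fetal, 72692 to 78891 in neonatal and 28107 to 36613 in adult libraries. Col1a2 was near 0, with 1 to 21 counts a library, while Col1a1 was at 11886 CPM or more in each. The reason was not tested. RNA of other cells was present too. The 15 macrophage markers summed to 4927 to 6815 CPM in adult, 175 to 193 in neonatal and 15.5, 16.7 and 79.8 CPM in fetal libraries, and for all 15 the adult libraries lay above all younger ones. Of all genes tested, 71.8% had adult and fetal libraries apart in either direction, and 76.1% had adult and neonatal libraries apart. Among them, Cd163 had no count in any fetal or neonatal library. The 14 cardiomyocyte markers summed to 8442 to 12672 CPM in fetal, 5802 to 6379.7 in neonatal and 306 to 322 CPM in adult libraries. Fetal replicate 3 stood apart from fetal replicates 1 and 2. It differed from their mean by over 1 on the log2 scale for 11 of 31 tested members, 3 higher and 8 lower, and for 10.2% of all genes tested, whereas replicates 1 and 2 differed that much from each other for none of those members. Without it, all 62 calls of the members over the 3 pairs of ages were kept and 9 more were made, each named with its gene. Calls over all genes also rose in each pair.

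Counts were high enough to test 31 of the 41 members. Of these, 19 differed between neonatal and fetal cells, 14 higher and 5 lower in the neonatal cells, where 36.3% of all 11337 genes tested differed (edgeR, adjusted p under 0.05 over all genes, 18.3% higher and 18% lower). Adult and fetal cells were separated by 25 members, 16 of them higher in adult, against 70.5% of all genes (34.9% higher and 35.5% lower). Between adult and neonatal cells 18 passed, 10 of them higher in adult, against 63.5% of all genes (31.6% and 31.8%), a share close to that of the members (58.1%). A change of at least 1 on the log2 scale was called for 10, 21 and 12 members in these comparisons, and for 11.2%, 32.4% and 25% of all genes. The median log2 fold change of the members tested was 0.62, 0.58 and -0.08, against -0.01, -0.01 and -0.01 over all genes tested. In 22, 24 and 22 of the 31 the ranges of both ages were apart, as in 57.4%, 71.8% and 76.1% of all genes. The comparisons share libraries, so their counts are not independent of each other.

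The members did not move as a block. Of the 31, 6 rose from fetal to neonatal and again to adult cells (Timp2, Mmp12, Mmp24, Adamts10, Adamtsl4 and Adamtsl5), 4 fell at both steps (Timp3, Mmp15, Mmp16 and Adamts12), and 5 passed no test (Mmp11, Mmp17, Adamts5, Adamts15 and Adamts19). Another 4 were higher in adult cells than in both younger ages without a call between those ages (Timp1, Mmp7, Mmp9 and Adamts4). The calls between neonatal and fetal cells depended most on single libraries: leaving out any neonatal library lowered them from 19 members to 10, 11 or 12, and leaving out fetal replicate 3 raised them to 22. Without that library, 27 members separated adult from fetal and 22 adult from neonatal cells. Calls over all genes rose too. They went from 4114 to 4679 between neonatal and fetal, from 7987 to 8616 between adult and fetal, and from 7197 to 8322 between adult and neonatal cells. Scaling by library size alone moved the median log2 fold change of all genes by -0.17 between neonatal and fetal cells and by -0.11 between adult and fetal cells. In the former pair it gave 12 members higher and 7 lower, and over all genes 1360 calls higher and 3325 lower, in place of 2074 and 2040, so that 29% of the calls were higher in place of 50.4%.

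**Figure D2:**
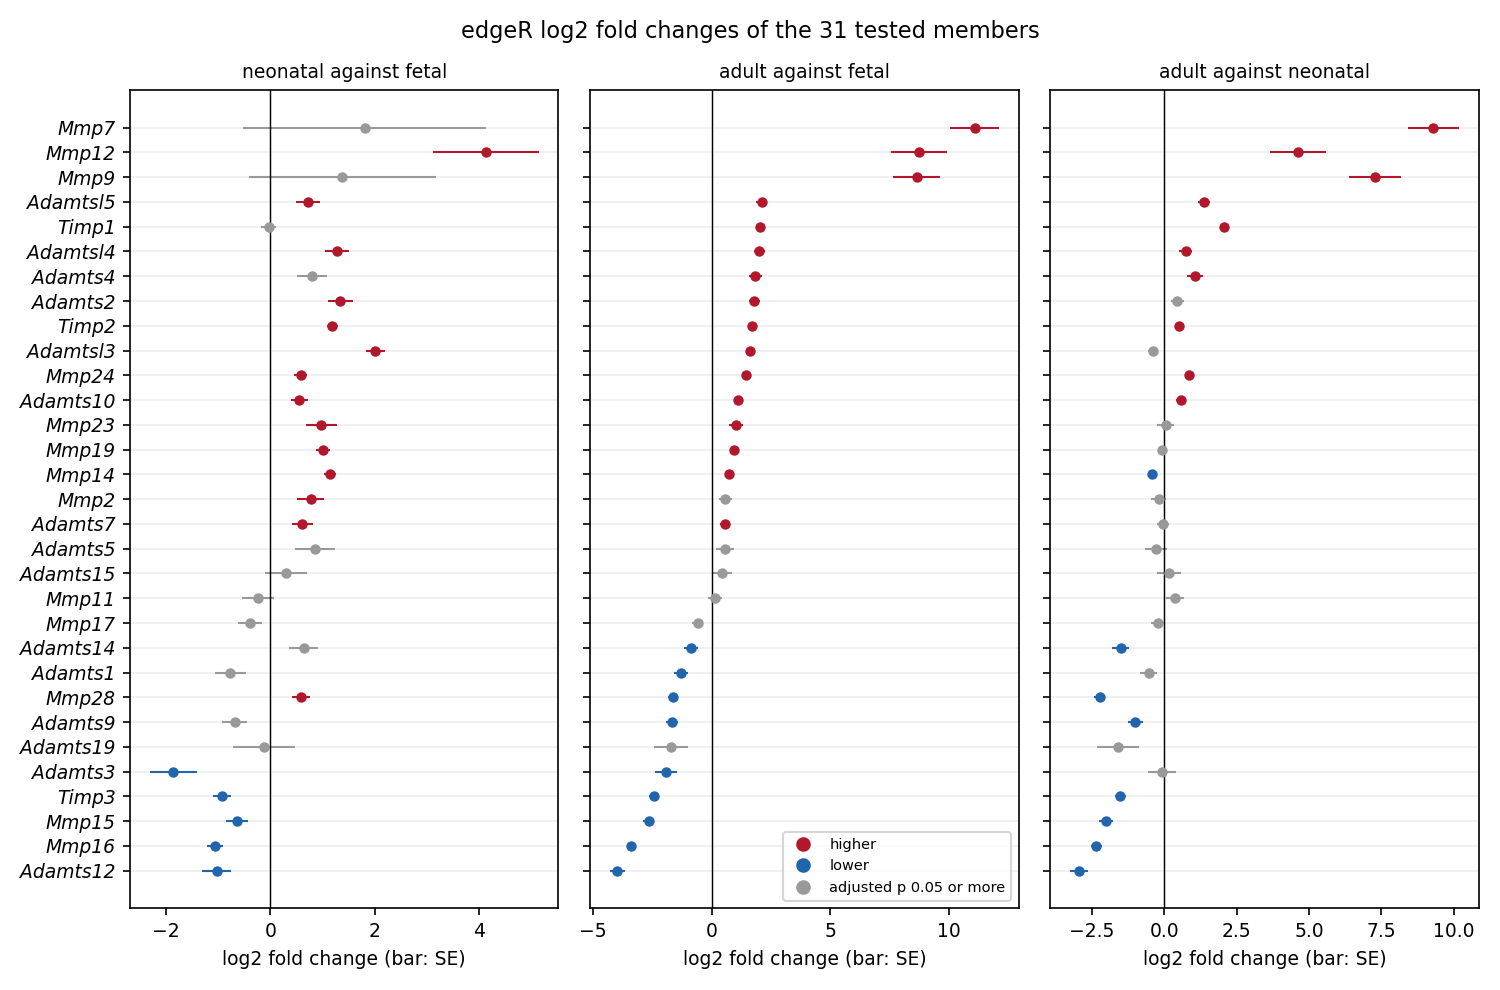
Log2 fold changes (x axis, with standard errors as bars) of the 31 tested members in each pair of ages, ordered by the change between adult and fetal cells. Mmp7, Mmp12 and Mmp9 lie far to the right in both adult comparisons, and Adamts12 and Mmp16 lie lowest.

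The 4 inhibitors followed different courses. Timp1 and Timp2, secreted inhibitors of most MMPs, were higher in adult cells, Timp3, which is bound to the matrix and also inhibits ADAMTS proteases, was lower, and Timp4 was near 0 throughout. Timp1, Timp3 and Timp4 each lie within the span of a synapsin gene (Syn1, Syn3 and Syn2) on the opposite strand, and their exons overlap no exon of another gene in the annotation.

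Timp1 (chromosome X, 1364786 to 1369384, rn6) was at 267, 266 and 304 CPM in the fetal, 283, 274 and 262 in the neonatal and 1454, 1048 and 938 in the adult libraries. The fetal and neonatal ranges overlapped, and every adult library lay above all 6 younger ones. The log2 fold change was 2.04 (SE 0.152) between adult and fetal and 2.07 (SE 0.152) between adult and neonatal cells (edgeR adjusted p = 2.48e-06 and 3.83e-06), and -0.03 (SE 0.147) between neonatal and fetal cells (edgeR adjusted p = 0.885). Timp2 (chromosome 10, 107338465 to 107386072) rose at both steps, with 335, 329.6 and 258 CPM in fetal, 718, 695 and 694 in neonatal and 1086, 919.6 and 989 in adult libraries. No 2 ages overlapped. Its log2 fold change was 1.19 (SE 0.109) from fetal to neonatal and 0.51 (SE 0.108) from neonatal to adult cells (edgeR adjusted p = 9.10e-05 and 0.00258).

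Timp3 (chromosome 7, 23544207 to 23594133) was at 127, 131 and 158 CPM in fetal, 74.7, 74.2 and 70.6 in neonatal and 30.4, 28.7 and 17.4 CPM in adult libraries, also without overlap. It fell by 0.92 (SE 0.174) on the log2 scale from fetal to neonatal cells and by 1.52 (SE 0.183) from neonatal to adult cells (edgeR adjusted p = 0.00394 and 8.81e-05). Timp4, an inhibitor known from adult heart tissue, had 13 counts over all 9 libraries, none of them in an adult library, and was not tested.

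**Figure D3:**
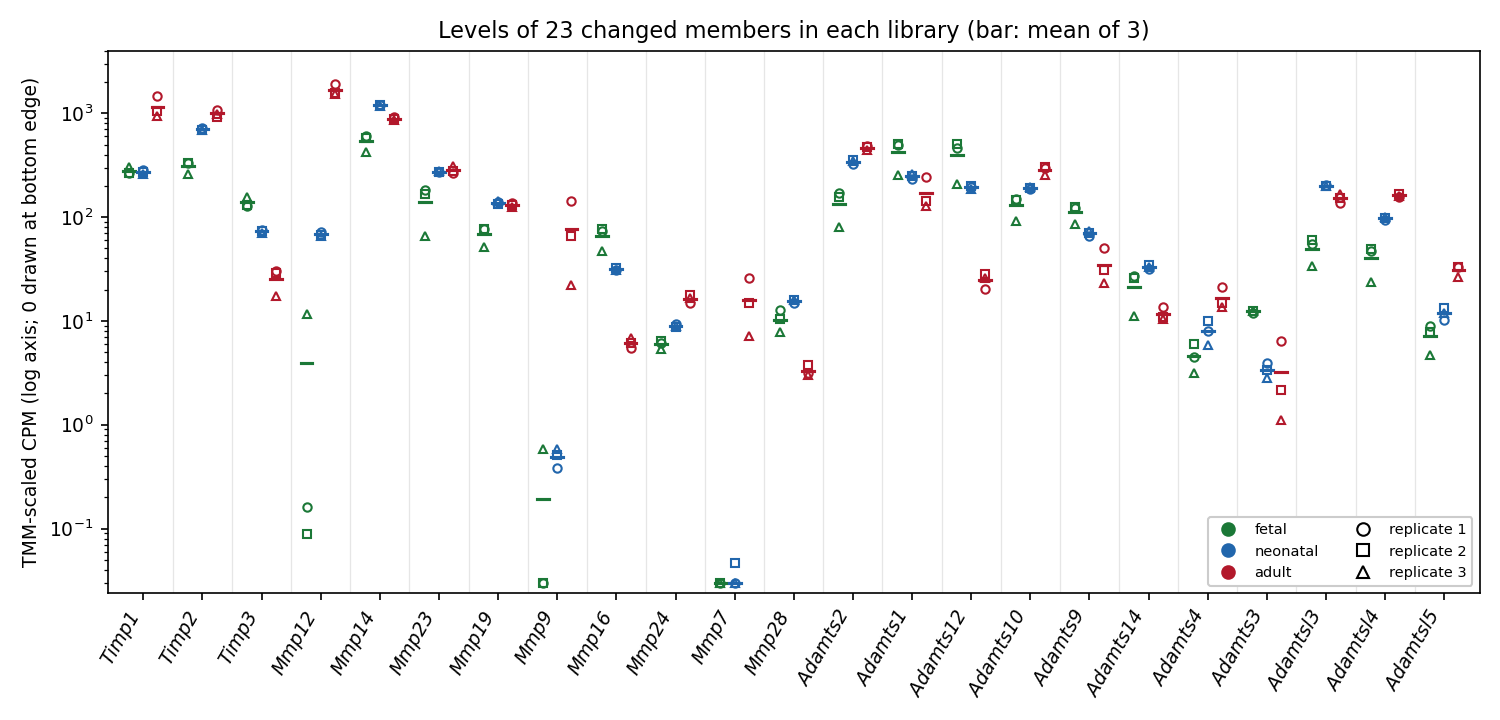
TMM-scaled CPM (log axis) of the 23 members that average 10 CPM or more in some age and a called change of at least 1 on the log2 scale, in each library, with the mean of 3 as a bar. Green marks fetal, blue neonatal and red adult libraries, and the 3 neonatal libraries lie close together in most genes.

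The members that separated adult from younger cells most were Mmp12, Mmp9 and Mmp7. Mmp12, the macrophage metalloelastase (chromosome 8, 5606592 to 5616494), was at 1918, 1580.3 and 1538 CPM in the adult libraries and at 72.3, 66.8 and 66.5 in the neonatal ones. The fetal libraries held 0.162, 0.0882 and 11.7 CPM, which is 3, 2 and 220 counts, so its fetal mean came almost wholly from replicate 3. Between adult and neonatal cells its log2 fold change was 4.62 (SE 0.958, adjusted p = 0.00264 in edgeR), and against fetal cells it was 8.75 (SE 1.19, adjusted p = 0.000168). Without fetal replicate 3 the fold changes against fetal cells were larger, 9.06 in place of 4.14 for neonatal and 13.67 for adult cells (edgeR adjusted p = 1.85e-09 and 4.34e-12).

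Mmp9, gelatinase B (chromosome 3, 161413410 to 161421473), was at 142, 66.3 and 22.3 CPM in the adult libraries, a spread of several fold within the age. The neonatal libraries held 0.385, 0.511 and 0.582 CPM and the fetal ones 0, 0 and 0.584 CPM, so each adult library stood far above all younger ones. The log2 fold change of adult cells was 7.27 (SE 0.891) against neonatal and 8.65 (SE 1) against fetal cells (edgeR adjusted p = 0.000122 and 6.14e-05). Without fetal replicate 3, where both other fetal libraries were at 0, adult cells were still called higher than fetal ones (edgeR adjusted p = 0.00637). Mmp7, matrilysin (chromosome 8, 5893253 to 5900965), had 337, 207 and 95 counts (25.8, 14.9 and 7.11 CPM) in the adult libraries, 1 count in the neonatal libraries together and none in the fetal ones. With 3 counts a library as the floor, adult cells were at least 98.4-fold higher than fetal and at least 82.1-fold higher than neonatal cells (edgeR adjusted p = 5.29e-05 and 8.95e-05). Bounds of this kind cover counting error only. Mmp9 (at most 11 counts in any younger library) and Mmp7 had enough counts to be tested only through their adult libraries. Their calls against younger ages thus come from genes admitted by the age where they were high.

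Macrophage RNA moved with these genes between the ages. The summed macrophage markers were lowest in fetal replicates 1 and 2, higher in fetal replicate 3 and the neonatal libraries, and highest in adult ones, as was Mmp12. Within the adult age the order differed. Adult replicate 1 had the lowest macrophage sum (4927 CPM, against 5956 and 6815 in replicates 2 and 3) and the highest Mmp12, Mmp9, Mmp7 and Timp1. Neutrophil markers, a set of 6 genes that includes S100a8 and Mpo, summed to at most 1.95 CPM in any library. S100a9, Mpo, Elane and Ltf were at or below 3 counts in every one. S100a8 exceeded 3 counts in at least 1 adult library and in no younger one. Csf3r, the only 1 of the 6 tested, was called higher in adult than in fetal and in neonatal cells (log2 3.13 and 3.60). It was at 3 counts or fewer in every neonatal library, and the 6 markers together reached at most 0.371 CPM in any younger library. Like Mmp9 and Mmp7, Csf3r was thus admitted to the test by the age where it was high. The part of macrophage or neutrophil RNA in the adult levels was not tested. In such bulk RNA fewer cells of a type and less RNA per cell cannot be told apart.

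Mmp2, gelatinase A, which degrades denatured collagen and basement membrane collagen, was the member with the most counts in fetal and neonatal cells. Its levels (chromosome 19, 15542771 to 15570589) were 1250.2, 1231 and 558 CPM in fetal, 1704, 1747 and 1744 in neonatal and 1703, 1442 and 1408 in adult libraries. Fetal libraries lay below all others, most of all replicate 3. The test called it between neonatal and fetal cells (log2 0.77, SE 0.259, edgeR adjusted p = 0.0445), a call kept under 8 of 17 alternatives with a highest adjusted p of 0.106, and its size without fetal replicate 3 was 0.48 (edgeR adjusted p = 0.000555). Its difference of 0.58 (SE 0.259) between adult and fetal cells did not pass (edgeR adjusted p = 0.07), and it did without any 1 of the fetal libraries, with the replicate number as a block, or in DESeq2. Without fetal replicate 3 it was 0.29 (edgeR adjusted p = 0.00532), and the difference of -0.20 between adult and neonatal cells was then called too (edgeR adjusted p = 0.0224, against 0.539 with all libraries).

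The 3 members classed here as collagenases, which open the triple helix of fibrillar collagen, were nearly silent. Mmp1 had at most 4 counts in any library, Mmp8 at most 5, and Mmp13 at most 7 outside fetal replicate 3. The class leaves out the gelatinases and the membrane-type MMPs, so it does not stand for all members that act on collagen. Fetal replicate 3 was the exception within the cluster on chromosome 8. It held 668 of the 669 counts of Mmp3 (stromelysin 1), 131 of the 144 counts of Mmp13 (collagenase 3) and 65 of the 70 counts of Mmp10 (stromelysin 2). In CPM these were 35.5, 6.95 and 3.45, where fetal replicates 1 and 2 held 0 of Mmp3, 0.0540 and 0.0882 of Mmp13 and 0 of Mmp10. The same library held 35 of 36 counts of Adamts18. Because these counts belong to 1 library, none of the 4 genes passed the filter and no difference between ages was tested. In this library epicardial or mesothelial markers summed to 238 CPM (96.4 and 95.6 in replicates 1 and 2) and macrophage markers to 79.8 CPM. Fibroblast markers summed to 28038 CPM, the lowest of the 9, with adult replicate 1 close at 28107. In fetal replicate 3, Col1a1 (14783 CPM) and Col3a1 (7286 CPM) made up most of that sum, so it mainly reflects collagen RNA. Whether other cells carried the Mmp3, Mmp13, Mmp10 and Adamts18 transcripts was not tested.

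**Figure D4:**
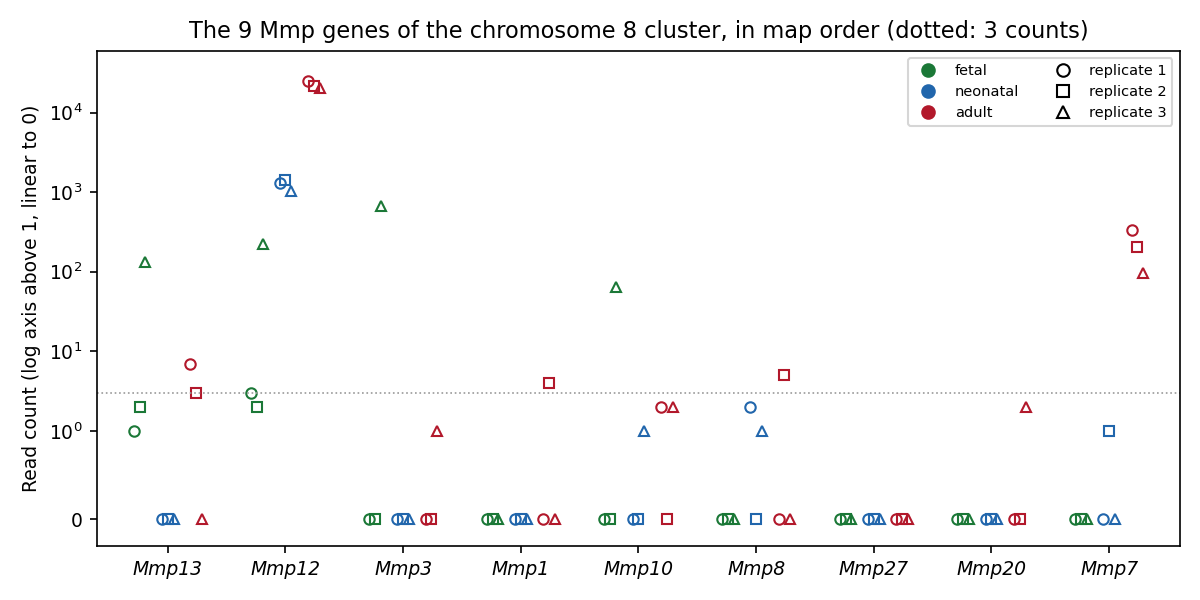
Read counts (y axis, logarithmic above 1 and linear to 0) of the 9 cluster genes in map order in each library, with colour for age and shape for replicate. Mmp12 and Mmp7 are high in the red adult libraries, and Mmp13, Mmp3 and Mmp10 are above 10 counts only in the green triangle, fetal replicate 3.

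Of the 6 cluster genes whose promoters hold both motifs, 5 reached 65 counts or more in some library, and Mmp1 did not exceed 4. Mmp8, Mmp20 and Mmp27, without the AP-1 letters in the window, had at most 5, 2 and 0 counts in any library. The 5 had no common course. Mmp12 and Mmp7 were highest in adult libraries, and Mmp3, Mmp13 and Mmp10 were found in fetal replicate 3 (with at most 1, 7 and 2 counts in any other library). Mmp27 on chromosome 8 and Mmp21 on chromosome 1 had no count in any of the 9 libraries. Outside the cluster, Timp1, Timp2, Mmp23 and Adamts2 had neither motif in the window and were at 66.4 CPM or more in every library. A link between the motifs and the counts was not tested.

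Membrane-type MMPs act at the cell surface. Mmp14 (MT1-MMP), the main activator of proMMP2, was by far the most abundant of the 5 and peaked in neonatal cells, at 598, 584 and 428 CPM in fetal, 1190.1, 1204 and 1172 in neonatal and 929, 875 and 859.7 in adult libraries (chromosome 15, 33074441 to 33083665). The 3 ages did not overlap. It rose by 1.15 (SE 0.120) on the log2 scale from fetal to neonatal cells and fell by 0.42 (SE 0.119) from neonatal to adult cells (edgeR adjusted p = 0.000181 and 0.0116).

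Mmp16 (MT3-MMP), another transmembrane member, was highest in fetal cells. Its levels were 72.9, 76.2 and 47.7 CPM in fetal, 30.9, 32.5 and 31.3 in neonatal and 5.51, 6.14 and 6.89 in adult libraries (chromosome 5, 31568419 to 31810484). No 2 ages overlapped. It fell by 1.06 (SE 0.161) on the log2 scale from fetal to neonatal cells, and then fell by 2.35 (SE 0.186) up to the adult age (edgeR adjusted p = 0.00135 and 6.03e-06). Mmp15 (MT2-MMP) fell alongside at lower levels, with means of 9.77 ± 1.57 CPM (SD, n = 3, as in all means given here), 6.29 ± 0.189 and 1.55 ± 0.482 in order of age. Its first step (edgeR adjusted p = 0.0372) was lost under 5 of 17 alternatives, with adjusted p up to 0.122, among them the fit with the replicate number as a block.

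Mmp24 (MT5-MMP) took the opposite course, with 6.16, 6.39 and 5.41 CPM in fetal, 9.24, 8.73 and 8.93 in neonatal and 14.8, 17.8 and 16.5 in adult libraries. It rose by 0.58 (SE 0.124) and by 0.87 (SE 0.121) on the log2 scale (edgeR adjusted p = 0.00675 and 0.000205). Mmp17 (MT4-MMP), which is held by a lipid anchor, averaged 7.90 ± 2.30, 6.07 ± 0.558 and 5.25 ± 0.950 CPM in order of age. It passed no test in the fit of all libraries, most narrowly between adult and fetal cells (log2 -0.59, edgeR adjusted p = 0.0503), where 6 of 17 alternatives called it lower. Without fetal replicate 3 it was called lower than fetal cells in neonatal (log2 -0.61, edgeR adjusted p = 0.0113) and adult cells (log2 -0.82, edgeR adjusted p = 0.000937). Thus the 5 genes split into 2 that rose, 2 that fell and 1 that was not called between adult and fetal cells.

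Among the remaining MMPs, Mmp19 and Mmp23 rose between fetal and neonatal cells and were not called between neonatal and adult cells. Mmp19 had 76.7, 76.6 and 51.5 CPM in fetal, 138, 134 and 142 in neonatal and 136, 132 and 125 in adult libraries. The younger ages did not overlap (log2 1.02, SE 0.135, edgeR adjusted p = 0.000649), while neonatal and adult libraries did. Mmp23, whose product has a transmembrane prodomain, was at 181, 168 and 66.4 CPM in fetal, 273, 272 and 276 in neonatal and 265, 277 and 308 in adult libraries. Its rise from fetal to neonatal cells (log2 0.98, SE 0.304, edgeR adjusted p = 0.0345) was kept under 11 of 17 alternatives, with adjusted p up to 0.0860, and was 0.65 without fetal replicate 3 (edgeR adjusted p = 2.56e-05).

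Mmp28 (epilysin) was the only member higher in neonatal than in fetal cells and lower in adult cells than in both. It had 12.6, 10.4 and 7.85 CPM in fetal, 14.8, 15.7 and 15.9 in neonatal and 3.14, 3.75 and 2.99 in adult libraries. It fell by 2.23 (SE 0.192) in log2 units from neonatal to adult cells (edgeR adjusted p = 1.02e-05), and the rise before it (log2 0.58, edgeR adjusted p = 0.0268) was lost under 5 of 17 alternatives, with adjusted p up to 0.0857. Mmp11 (stromelysin 3) stayed between 20.4 and 51.3 CPM in all libraries and was not called in any pair. Both genes are listed on a chromosome and again on an unplaced sequence in the annotation, so reads that match both copies may be missing from their counts, and their levels are uncertain.

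ADAMTS proteases that cleave aggregating proteoglycans were represented by 5 genes, and edgeR called none of them between neonatal and fetal cells. In that pair 3 of the 5 (Adamts1, Adamts4 and Adamts9) had an unadjusted p under 0.05, and DESeq2 called the same 3 (adjusted p = 0.0207, 0.0299 and 0.0197). Adamts1 (chromosome 11, 25342119 to 25350938) was at 499.9, 502 and 256 CPM in fetal, 233, 248 and 259 in neonatal and 242, 143 and 127 in adult libraries. Fetal replicate 3 thus lay within the neonatal range, and only the fetal and adult ranges were separate (log2 -1.30, SE 0.300, edgeR adjusted p = 0.00401). Without fetal replicate 3 the difference between neonatal and fetal cells was called (log2 -1.02, edgeR adjusted p = 0.0273). Adamts9 was lower in adult than in both younger ages, with 123, 125 and 86.6 CPM in fetal, 65.4, 70.7 and 72.9 in neonatal and 50.1, 31.2 and 23.2 in adult libraries (log2 -1.68 and -1, SE 0.257 and 0.255, edgeR adjusted p = 0.000352 and 0.00788).

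Adamts4, aggrecanase 1, moved the other way. It had 4.48, 6.04 and 3.18 CPM in fetal, 8.03, 9.99 and 5.82 in neonatal and 21.1, 14.8 and 13.6 in adult libraries, with the adult ones above all others (log2 1.84 against fetal and 1.04 against neonatal cells, SE 0.285 and 0.276, edgeR adjusted p = 0.000298 and 0.00838). Adamts5, aggrecanase 2, was not called in any pair. Its means were 32.3 ± 12.8, 58.4 ± 3.80 and 47.7 ± 25.8 CPM, and adult replicate 1 alone, at 77.2 CPM, lay above the neonatal libraries. Adamts15 was not called either, with 17.2 ± 8.05, 21.2 ± 0.785 and 23.6 ± 11.1 CPM.

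The procollagen N-proteinases, which remove the amino-terminal propeptide of fibrillar procollagens, changed their proportions. Adamts2, the enzyme for procollagen I (chromosome 10, 36098051 to 36301775), had 169, 155 and 79.6 CPM in fetal, 325, 355 and 344 in neonatal and 487, 469.9 and 439.9 in adult libraries, and the ages did not overlap. It rose from fetal to neonatal cells by 1.34 (SE 0.232) on the log2 scale (edgeR adjusted p = 0.00276), and the later difference of 0.45 (SE 0.228) did not pass (edgeR adjusted p = 0.115). It was of like size (0.44) and was called without fetal replicate 3 (edgeR adjusted p = 3.53e-05), in a fit of only the 6 libraries compared and by library size alone. Adamts3, at 12, 12.5 and 12.5 CPM in fetal libraries, was lower in neonatal (3.96, 3.39 and 2.85 CPM) and adult ones (6.35, 2.17 and 1.12 CPM). Its fall from fetal to neonatal cells, by 1.85 (SE 0.457) on the log2 scale (edgeR adjusted p = 0.0137), was lost without neonatal replicate 2 or 3 (edgeR adjusted p = 0.0551 and 0.0591). Adamts14 was highest in neonatal libraries, at 31.8, 34.4 and 32.7 CPM, against 26.8, 25.7 and 11 in fetal and 13.6, 11 and 10.3 in adult ones. Its difference between neonatal and fetal cells (log2 0.64, edgeR adjusted p = 0.101) was called, at 0.33, without fetal replicate 3 (edgeR adjusted p = 0.0245). It fell by 1.5 (SE 0.292) on the log2 scale from neonatal to adult cells (edgeR adjusted p = 0.00171), and its call between adult and fetal cells (edgeR adjusted p = 0.0249) was lost under 5 of 17 alternatives, with adjusted p up to 0.0835.

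Adamts12, a protease known to cut cartilage oligomeric matrix protein, had the largest called decrease of all members. Its levels (chromosome 2, 61039072 to 61340687) were 464, 507 and 209 CPM in fetal, 194, 200.5 and 185 in neonatal and 20.3, 28.3 and 25.8 in adult libraries. No 2 ages overlapped, although fetal replicate 3 came close to the neonatal libraries. Adult cells were lower by 3.99 (log2 -3.99, SE 0.323) than fetal and by 2.96 (log2 -2.96, SE 0.310) than neonatal cells (edgeR adjusted p = 6.48e-06 and 4.85e-05). Its call between neonatal and fetal cells (log2 -1.03, edgeR adjusted p = 0.0224) was lost without fetal replicate 1 or 2 or any neonatal library, with adjusted p up to 0.0790.

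Adamts7, which shares that substrate, did not follow it. Its means were 62.7 ± 14.8, 96.1 ± 3.14 and 92.6 ± 25.7 CPM in order of age, and its calls against fetal cells (edgeR adjusted p = 0.0434 and 0.0345) were kept under 9 and 10 of 17 alternatives and lost with the replicate block, with adjusted p up to 0.150 and 0.123. Adamts10, which binds fibrillin, had 148, 147 and 92.6 CPM in fetal, 188, 189 and 195 in neonatal and 296, 303 and 253 in adult libraries. It was higher in adult cells than in fetal (log2 1.13, SE 0.164, edgeR adjusted p = 0.000209) and neonatal ones (log2 0.57, SE 0.162, edgeR adjusted p = 0.0122), and its earlier rise (edgeR adjusted p = 0.0260) was lost without any 1 neonatal library (up to 0.0719). That rise was 0.56 on the log2 scale with all libraries and 0.37 without fetal replicate 3. Adamts19 was at 2.12 CPM or below in all libraries and was not called with all libraries. Its difference of -1.60 between adult and neonatal cells (edgeR adjusted p = 0.0805) was called without fetal replicate 3 (edgeR adjusted p = 0.0132), without fetal replicate 1 and with only the 6 libraries compared.

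All 3 ADAMTS-like genes were higher in neonatal and in adult than in fetal cells. Adamtsl3 had 54.7, 60.6 and 33.6 CPM in fetal, 202, 201 and 198 in neonatal and 138, 154 and 166 in adult libraries, so that neonatal libraries were highest. It rose by 2.01 (SE 0.187) on the log2 scale from fetal to neonatal cells (edgeR adjusted p = 0.000115). The adult minus neonatal difference of -0.40 (SE 0.180) did not pass (edgeR adjusted p = 0.0807), although the libraries did not overlap, as was the case for 76.1% of all genes tested in that pair. Neither age compared includes fetal replicate 3, and without it in the shared fit the same difference was called (edgeR adjusted p = 0.000278), as it was with only the 6 libraries compared. Adamtsl4, a microfibril-associated protein, rose at both steps, from 47.4, 49.8 and 23.6 CPM in fetal to 94.5, 98.7 and 99.5 in neonatal and 157, 169 and 161 in adult libraries (log2 1.28 and 0.73, SE 0.229 and 0.224, edgeR adjusted p = 0.00338 and 0.0182). The second call was lost under 4 of 17 alternatives, each of which left out 1 library, with adjusted p up to 0.0589. Adamtsl5 was at 9.02, 7.80 and 4.67 CPM in fetal, 10.2, 13.3 and 11.9 in neonatal and 33.0, 33.3 and 26.2 in adult libraries, and it rose by 1.38 (SE 0.214) from neonatal to adult cells (edgeR adjusted p = 0.000396). Its earlier rise (log2 0.72, edgeR adjusted p = 0.0315) was lost under 3 of 17 alternatives, with adjusted p up to 0.108.

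Levels of different genes can be set side by side only per length, and CPM per kb of exon was used for that. In fetal cells Timp1 (377 ± 29.4 CPM per kb) and Mmp2 (333 ± 129.6) led, within their spread of each other, followed by Mmp14 (219 ± 38.6) and Timp2 (185 ± 25.7), whose libraries also overlapped. In neonatal cells the order was Mmp2 (569 ± 7.96 CPM per kb), Mmp14 (486 ± 6.64), Timp2 (423 ± 8.12) and Timp1 (369 ± 14.4), and no neighbours among these 4 overlapped. In adult cells Timp1 led with 1549 ± 368 CPM per kb, ahead of Mmp12 (937 ± 116), Timp2 (601 ± 50.2), Mmp2 (499 ± 53.0) and Mmp14 (363 ± 14.9), and Timp2 and Mmp2 overlapped in their libraries. Adult Timp1 was the 38th and adult Mmp12 the 72nd highest of the 11337 genes tested on this scale.

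Summed over their genes, Mmp and Timp transcripts were both most abundant in adult libraries. The 21 Mmp genes summed to 876, 855 and 501 CPM per kb in fetal, 1400.0, 1415 and 1407 in neonatal and 2384, 2054 and 2010.4 in adult libraries. Without Mmp12 the adult sums were 1314, 1172 and 1152 CPM per kb and lay below the neonatal sums of 1359.6, 1378 and 1370.2. The 4 Timp genes summed to 635, 633 and 656 CPM per kb in fetal, 858, 831 and 812 in neonatal and 2636, 1986 and 1872 in adult libraries. The ratio of the Mmp to the Timp sum was 1.38, 1.35 and 0.764 in fetal, 1.63, 1.70 and 1.73 in neonatal and 0.905, 1.03 and 1.07 in adult libraries, so the neonatal libraries had the highest ratios and fetal replicate 3 the lowest. Without Mmp12 in the Mmp sum, a variation chosen after seeing the data, the adult ratios were 0.498, 0.590 and 0.615 and lay below all others, while fetal replicate 3 was at 0.754 and the neonatal libraries at 1.58 to 1.69. These sums are descriptions of RNA, without a test, and say nothing of protein or activity.

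**Figure D5:**
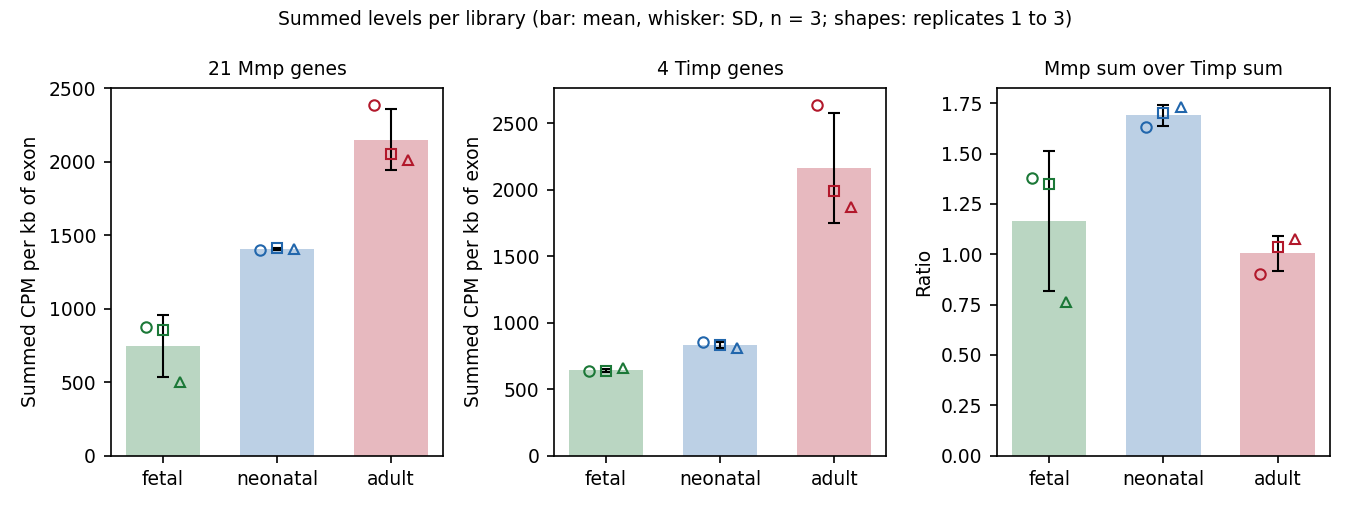
Summed CPM per kb of exon of the Mmp and of the Timp genes and their ratio in each library (points, shapes for replicates) with the mean and SD over 3 libraries (bars and whiskers). Both sums are highest in adult libraries, and the ratio is highest in the neonatal ones, at 1.63 to 1.73.

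Other genes of matrix proteolysis were counted from 3 lists. Of 29 tested regulators and other matrix proteases, such as Plau, Furin, Bmp1 and the cathepsins, 13 were higher and 4 lower in the neonatal than in the fetal age, 58.6% of the list against 36.3% of all genes. Between the fetal and the adult age 14 rose and 9 fell (79.3% against 70.5% of all genes, median log2 fold change 0.30), and between the neonatal and the adult age 10 rose and 9 fell (65.5% against 63.5%, median 0.06). The lysosomal cysteine protease Ctsb averaged 542 ± 12.1, 778 ± 0.621 and 4321 ± 113 CPM in fetal, neonatal and adult libraries (edgeR adjusted p of the oldest against the youngest 3.43e-09). Ctss, a cathepsin of antigen-presenting cells, averaged 1.31 ± 1.13, 7.79 ± 1.05 and 235 ± 11.6 CPM (3.98e-07). Both were ordered by age as the summed macrophage markers were, whose part in these levels was not tested. Adam19, a membrane protease of the related ADAM family, was at 1205 ± 25 CPM in neonatal and fell to 337 ± 52.7 by the adult age (edgeR adjusted p = 1.12e-06).

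Of 19 tested substrates, 5 of which are also among the fibroblast markers, 5 rose and 3 fell between the fetal and the neonatal age (42.1% against 36.3% of all genes). Col1a2, with at most 21 counts in any library, is among the 19 and was not called in any pair. Between the fetal and the adult age 3 rose and 11 fell (73.7% against 70.5%, median log2 fold change -0.74), and between the neonatal and the adult age 2 rose and 14 fell (84.2% against 63.5%, median -1.42). Markers of cardiomyocytes, mural cells and, in part, epicardial or mesothelial cells fell with them. All 14 cardiomyocyte markers were lower in adult cells than at both younger ages, with Myh6, Myh7, Myl2, Myl7 and Csrp3 at 3 counts or fewer in every adult library. Of all genes tested, 35.5% were lower in adult than in fetal cells and 31.8% lower than in neonatal cells. Of 9 mural cell markers 8 were lower in adult than in neonatal cells, as were 31.8% of all genes. Their sums were 1777 to 2675 CPM in fetal, 2925 to 3009.5 in neonatal and 329 to 712 in adult libraries. None was at the floor at any age. Of 6 epicardial or mesothelial markers, 4 were lower and 1 higher in adult than in neonatal cells (31.8% and 31.6% of all genes). Against fetal cells 4 were lower and 2 higher (35.5% and 34.9% of all genes). Endothelial markers did not fall as a set. Of 9 tested, 5 were higher and 3 lower in adult than in neonatal cells (31.6% and 31.8% of all genes). Against fetal cells 4 were higher and 2 lower (34.9% and 35.5%). Of 5 Schwann cell markers tested, 2 were lower in adult than in neonatal cells and 1 lower than in fetal cells (31.8% and 35.5%). The part of these cells in the substrate levels was not tested. Acan (aggrecan) had 106 ± 15.1 CPM in fetal and 96.2 ± 1.39 in neonatal cells and at most 3 counts in every adult library, so the adult level was lower by a factor of at least 463 than the fetal and of at least 419 than the neonatal one (edgeR adjusted p = 1e-09 and 2.16e-09). Tnc (tenascin C) averaged 2644 ± 625, 802 ± 16.3 and 174 ± 15 CPM in order of age and fell at both steps (edgeR adjusted p = 0.000110 and 4.45e-06). Of 16 tested genes known to induce MMP transcription or to act in it, 4 rose and 2 fell between the fetal and the neonatal age (37.5% against 36.3% of all genes). Between the fetal and the adult age 13 rose and 1 fell (87.5% against 70.5%, median log2 fold change 1.53), and between the neonatal and the adult age 10 rose and 1 fell (68.8% against 63.5%, median 1.59). Il1a and Il1b, counted as rising in both, had at most 15 counts in any younger library. They had enough counts to be tested only through their adult libraries, so their calls come from the age where they were high. The 15 macrophage markers rose with this list in both adult comparisons (median log2 fold change 7.68 and 5.46), and their part in it was not tested. Tgfb1, the growth factor best known for inducing matrix genes in fibroblasts, was at 78.6 ± 6.35 CPM in fetal libraries and at 297 ± 6.39 CPM in adult ones (edgeR adjusted p = 3.25e-08).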

How the data were processed

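RNA-seq libraries of 9 cultures were analysed from the deposited tables. The authors' raw counts came from featureCounts 1.6.3 with an rn6 annotation, per the file headers. Only annotation and output options are given there, so reads were counted without strand by the program's defaults. STAR 2.5.2b, Trimmomatic 0.39 and DESeq2 are named in the submitters' processing notes. A deposited table of normalized signal held each count divided by 1 size factor per library (100% of values within a relative deviation of 1e-06) and was not used further. Exon lengths came from the count table.

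Here, edgeR 4.0.16 under R 4.3.3 was run on genes passing filterByExpr (TMM, robust quasi-likelihood fit to all 9 libraries, age as the only term), with Benjamini-Hochberg adjustment over 11337 genes and 0.05 as the threshold. CPM used TMM-scaled library sizes. Alternatives included DESeq2 1.42.0, other scalings and filters, and leaving out each library. Chi-square over degrees of freedom between libraries of an age was at least 2.09, so none was taken as deposited more than once. Members that averaged 10 CPM or more at an age and had a called log2 change of at least 1 are given by library, and of other genes the 6 with the smallest adjusted p are named. Members and lists were chosen with earlier results of these data known. All 41 symbols matched RefSeq. Precision is limited by 3 libraries an age and, for low genes, by counts.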

Additional observations from a re-analysis of the deposited data

How the results depend on the processing

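Over 17 alternatives, the members called between adult and fetal cells numbered 23 to 27 (25 in the fit reported) and those between adult and neonatal cells 17 to 22 (18), and 23 of the 25 and 17 of the 18 were called under every alternative that gave a value (DESeq2 gave none for Mmp12). Between neonatal and fetal cells 10 of 19 were, and the count of members changed by over 1.5 times only where a library was left out. In those 9 fits, 2476 to 4679 genes were called in that pair (2607, 2476 and 2575 without neonatal replicates 1, 2 and 3), with 10 to 22 members, 8 to 15 higher and 2 to 7 lower (3 lower without fetal replicate 2).

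Signs reversed only for differences with no call. Leaving out 1 library at a time put the log2 difference between the neonatal and fetal ages at -0.0657 to 0.0361 for Timp1, at -0.0415 to 0.515 for Adamts15 and at -0.520 to 0.776 for Adamts19, which was at 0.0477 with the replicate block. Between the adult and neonatal ages the ranges were -1.04 to 0.313 for Adamts3, -0.290 to 0.112 for Adamts7 (0.00214 by library size alone), -0.0136 to 0.0951 for Mmp23, -0.280 to 0.415 for Adamts15 and -0.124 to 0.616 for Mmp11. For Mmp11 between the adult and fetal ages it was -0.349 to 0.391. The cause was not tested.

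Same-numbered libraries of different ages showed no pairing: their deviations from the age means correlated at -0.0649 to 0.0521, and 4 of 9 libraries correlated best with their own number. With the replicate number as a block, 18, 25 and 18 members were called in the 3 pairs of ages, and 3713, 7801 and 6985 genes. Of the 10 members that were not tested, Mmp3, Mmp13, Mmp10 and Adamts18 had nearly all their counts in fetal replicate 3. Depth limits statements on the others.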
